A study of Mus musculus with 3 samples.

Results

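The regulatory CD4 T cells of untreated mouse blood were taken as the 192 of 23870 barcodes that carried Foxp3 within a T cell gate, chosen by their measured UMIs of the gate genes. The gate kept barcodes with 200 or more genes, 4 or more UMIs (unique molecular identifiers, each counting 1 captured molecule) summed over Cd3e, Cd3d, Cd3g, Trac and Trbc2, at most 2 over the B cell genes Cd79a, Cd79b and Ms4a1, and at most 1 over the myeloid genes Csf1r and Csf3r. It held 6344 barcodes. Of these, the Foxp3-positive cells had 1 or more Foxp3 UMIs and none of Cd8a or Cd8b1. They were set against 2305 Foxp3-negative CD4 T cells, with 1 or more Cd4 UMIs and none of Cd8a, Cd8b1 or Foxp3, and against 3047 CD8 T cells of the same gate, with 1 or more Cd8a or Cd8b1 UMIs and none of Cd4 or Foxp3. The cells came from 3 libraries of peripheral blood leukocytes of untreated male mice aged 8, 9 and 10 weeks, here called replicates 1, 2 and 3. All arms were drawn from these same libraries, and the mouse strain is not given in the sources used here. Replicates 1, 2 and 3 gave 119, 41 and 32 Foxp3-positive cells, against 1466, 361 and 478 Foxp3-negative CD4 T cells and 1931, 538 and 578 CD8 T cells. The labels do not state that the libraries came from separate animals. The p-values therefore measure how the difference between arms varied over these samples, and that spread may be technical. The study concerns splenic macrophages after myocardial infarction, and none of these blood samples is from an injured or treated animal.

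Regulatory T cells are CD4 T cells that restrain other immune cells and prevent autoimmunity. Their lineage depends on Foxp3, a forkhead transcription factor. They take up interleukin 2 through a receptor whose alpha chain is Il2ra, and they carry Ctla4, which competes with the costimulatory receptor Cd28 for its ligands on antigen-presenting cells. In blood they circulate beside naive and memory helper T cells, and many carry Ikzf2 (Helios), an Ikaros family factor common in regulatory T cells that arise in the thymus.

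Replicates 1, 2 and 3 held 45718031, 19591648 and 23443660 UMIs in 11105, 5736 and 7029 barcodes. The median barcode held 3548, 3512 and 3064 UMIs among Foxp3-positive cells, against 3609, 3425 and 3242.5 among Foxp3-negative CD4 T cells and 4200.0, 4289 and 3917.5 among CD8 T cells. Erythroid transcripts were highest in replicate 2 and lowest in replicate 1, in both CD4 arms and in CD8 T cells. The erythroid list summed to 536, 15512 and 6159 CPM (UMI counts scaled to a common total for each arm of each library) in Foxp3-positive cells. It summed to 574, 26512 and 5166 CPM in Foxp3-negative CD4 T cells, and to 903, 19911 and 4868 CPM in CD8 T cells. Each pair of libraries shared between 48 and 101 barcode sequences, and 1 Foxp3-positive cell of replicate 1 and 1 of replicate 3 carried a shared one. Scrublet called 667, 116 and 138 barcodes doublets, and 0 of the 192 Foxp3-positive cells were among them.

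The promoters of Foxp3 and of the markers Il2ra and Ctla4 are shown because Foxp3 defines the cells and the other 2 genes were both higher in them. They are RefSeq sequences of build GRCm38.p6 on the plus strand, with Foxp3 at chrX:7579426-7579725, Il2ra at chr2:11642542-11642841 and Ctla4 at chr1:60908775-60909074. The capitals mark TATAAA, the letters of a TATA box. RefSeq lists 2 promoters for Foxp3, and the one with the lower coordinate is shown.
Foxp3: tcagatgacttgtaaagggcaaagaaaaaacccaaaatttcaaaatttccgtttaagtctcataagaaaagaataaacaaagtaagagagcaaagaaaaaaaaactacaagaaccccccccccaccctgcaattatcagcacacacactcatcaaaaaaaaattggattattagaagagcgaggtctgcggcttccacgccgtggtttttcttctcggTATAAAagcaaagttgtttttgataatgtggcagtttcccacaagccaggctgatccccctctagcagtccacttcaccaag
Il2ra: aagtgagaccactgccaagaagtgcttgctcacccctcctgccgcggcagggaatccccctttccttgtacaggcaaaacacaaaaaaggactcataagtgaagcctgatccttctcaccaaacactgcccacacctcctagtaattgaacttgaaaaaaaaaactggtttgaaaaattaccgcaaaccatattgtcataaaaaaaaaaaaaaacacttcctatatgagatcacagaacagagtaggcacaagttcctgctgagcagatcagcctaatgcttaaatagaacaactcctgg
Ctla4: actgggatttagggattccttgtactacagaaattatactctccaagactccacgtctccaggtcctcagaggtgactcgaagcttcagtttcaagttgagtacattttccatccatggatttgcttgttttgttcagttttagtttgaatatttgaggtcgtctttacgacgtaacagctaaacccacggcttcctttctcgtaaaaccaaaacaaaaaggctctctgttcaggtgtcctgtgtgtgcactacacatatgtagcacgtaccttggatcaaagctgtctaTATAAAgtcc
TATAAA begins at base 219 of 300 in the Foxp3 window, 32 bases before the annotated start, and at base 291, after the start, in the Ctla4 window. It is not in the Il2ra window. Searched on both strands, it is present in 13.6% of 32851 RefSeq promoters of this length. The forkhead letters GTAAACA, likewise searched on both strands, are in none of the 3 windows and in 3.65% of all promoters.

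The label was checked against Foxp3 and 5 other markers. Foxp3 chose the cells, so its values are given as a description. The series held 1317 Foxp3 UMIs in 266 barcodes, and 988 of these UMIs, 75.0%, lay in the 192 cells. A further 37 barcodes of the T cell gate had Foxp3 together with Cd8a or Cd8b1, and 37 lay outside the gate. B cells, which should lack the gene, were taken as barcodes with 4 or more UMIs over the B cell genes and 0 over the T cell genes. Among 9125 such B cells, 10 had a Foxp3 UMI, or 0.110% (95% exact interval 0.0526 to 0.201). Such intervals cover counting error only. Barcodes with both B and T cell gene UMIs were left out by that choice. The share therefore does not measure Foxp3 carried over together with T cell RNA. The 192 cells carried 1 to 25 Foxp3 UMIs, with a median of 4. Just inside the threshold, 34 cells had 1 Foxp3 UMI, while 67 had 2 to 4 and 91 had 5 or more. Just outside it lay the 2305 Foxp3-negative cells, whose markers are given below. Cd4 itself was seen in 159 of the 192 cells, or 82.8%. By library, it was seen in 84.9%, 90.2% and 65.6% of them in replicates 1, 2 and 3.

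Foxp3-positive cells were a small part of the CD4 T cells in every library. Their share among Foxp3-positive and Foxp3-negative CD4 T cells together was 7.51% in replicate 1 (95% exact interval 6.26 to 8.92), 10.2% in replicate 2 (7.42 to 13.6) and 6.27% in replicate 3 (4.33 to 8.74). The 3 intervals overlap, and the mean was 7.99% ± 2.01 (SD, n = 3). The mean was 6.63% when 2 Foxp3 UMIs were required. The Foxp3-positive cells needed no Cd4 UMI, unlike the Foxp3-negative ones. With a Cd4 UMI required of both, the mean was 6.65%, and replicate 3 stood at 4.21% (2.62 to 6.36). Thinning every cell to 1500 UMIs gave a mean of 8.25%, with the T cell gate and the Cd8a and Cd8b1 counts still taken before thinning.

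All 5 other markers were higher in Foxp3-positive cells than in Foxp3-negative CD4 T cells of the same library. UMIs were summed per library and arm and tested with edgeR's quasi-likelihood test, with the library as a block and Benjamini-Hochberg adjustment over all 8380 genes tested. Levels are CPM scaled by edgeR's TMM factors, in the order of replicates 1, 2 and 3. Il2ra, the interleukin 2 receptor alpha chain, had 579, 636 and 785 CPM in Foxp3-positive cells, against 7.52, 7.20 and 1.91 CPM in Foxp3-negative CD4 T cells (log2 fold 6.62, SE 0.20, adjusted p = 3.49e-31). Ikzf2 had 693, 750.0 and 486 CPM in Foxp3-positive cells, against 15.0, 16.0 and 18.4 CPM in Foxp3-negative CD4 T cells (log2 fold 5.35, SE 0.16, adjusted p = 4.00e-37). Neither gene's groups overlapped, and the lowest Foxp3-positive library lay far above every Foxp3-negative one. Ctla4 had 609.9, 591 and 663 CPM in Foxp3-positive cells, against 25.1, 23.2 and 38.8 CPM in Foxp3-negative CD4 T cells (log2 fold 4.48, SE 0.15, adjusted p = 7.24e-35). Izumo1r, the folate receptor family protein FR4, had 581, 515 and 495 CPM in Foxp3-positive cells, against 134, 158 and 163 CPM in Foxp3-negative CD4 T cells (log2 fold 1.88, SE 0.13, adjusted p = 1.84e-18). The groups did not overlap for either gene. The costimulatory receptor Icos had 348, 451 and 121 CPM in Foxp3-positive cells, against 113, 96.0 and 89.7 CPM in Foxp3-negative CD4 T cells (log2 fold 1.64, SE 0.18, adjusted p = 4.17e-08). Its Foxp3-positive library of replicate 3 was the lowest of that group and lay close to the Foxp3-negative libraries without overlapping them.

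**Figure D1:**
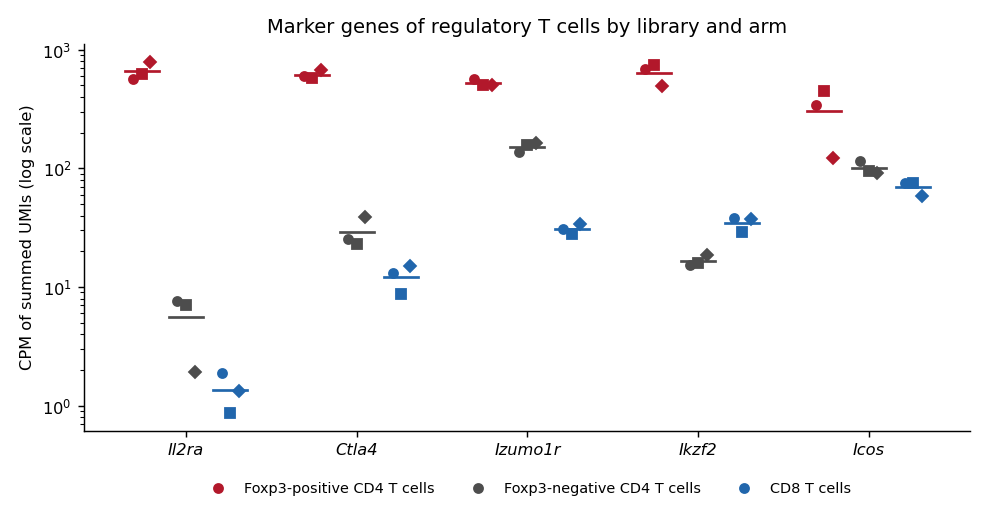
Levels of 5 markers in Foxp3-positive cells, Foxp3-negative CD4 T cells and CD8 T cells, in CPM of summed UMIs without TMM factors on a log axis, with circles, squares and diamonds for replicates 1, 2 and 3 and bars for means. Il2ra stands at 569 to 795 CPM in Foxp3-positive cells, against 1.93 to 7.66 CPM in Foxp3-negative CD4 T cells.

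Counted by cell, 66.1% of Foxp3-positive cells had an Il2ra UMI, against 1.08% of Foxp3-negative CD4 T cells, 0.558% of CD8 T cells and 1.12% of B cells, at pooled median depths of 3512, 3507, 4168 and 3185 UMIs. Ctla4 was seen in 70.8% of Foxp3-positive cells, against 5.12% of Foxp3-negative CD4 T cells, 2.95% of CD8 T cells and 0.625% of B cells. Ikzf2 was seen in 68.2% of Foxp3-positive cells, against 3.04% of Foxp3-negative CD4 T cells, 7.84% of CD8 T cells and 0.230% of B cells. These 3 genes were common in Foxp3-positive cells and scarce elsewhere. The B cells were limited to barcodes without a UMI of the T cell genes, so their shares leave out mixed barcodes. Izumo1r was seen in 69.3% of Foxp3-positive cells, against 27.2% of Foxp3-negative CD4 T cells, 8.66% of CD8 T cells and 0.296% of B cells. Icos was seen in 41.7% of Foxp3-positive cells, against 26.0% of Foxp3-negative CD4 T cells, 24.0% of CD8 T cells and 0.0877% of B cells. Izumo1r and Icos were thus also present in many conventional T cells. With every cell thinned to 1500 UMIs, which left out 1 Foxp3-positive and 51 Foxp3-negative CD4 T cells as too shallow, the mean share over libraries for Il2ra was 47.4% in Foxp3-positive and 0.589% in Foxp3-negative cells, and that for Icos 24.8% in Foxp3-positive and 12.2% in Foxp3-negative cells.

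Most Foxp3-positive cells carried several markers at once. Of the 192, 136 (70.8%) had 3 or more of Il2ra, Ctla4, Izumo1r, Ikzf2 and Icos, against 56 of 2305 Foxp3-negative CD4 T cells (2.43%), 33 of 3047 CD8 T cells (1.08%) and 0 of 9125 B cells. The B cells had been chosen to lack UMIs of the T cell genes, so their count is not an open control. Il2ra, Ctla4 and Ikzf2 were all present in 77 Foxp3-positive cells (40.1%) and in 3 Foxp3-negative CD4 T cells (0.130%). The share with 3 or more markers was 41.2% among the 34 cells with 1 Foxp3 UMI, 68.7% among the 67 with 2 to 4 and 83.5% among the 91 with 5 or more, whose median depths were 3396.5, 3229 and 3914 UMIs. Cells at the threshold thus held fewer markers than those with more Foxp3, but more than Foxp3-negative cells did. None of the 5 markers was seen in 7 Foxp3-positive cells (3.65%) and in 1211 Foxp3-negative CD4 T cells (52.5%). Of the 37 T cells with both Foxp3 and Cd8a or Cd8b1, which were not counted among the 192, 18 (48.6%) had 3 or more markers. A further 13 of these 37 (35.1%) had none of the 5, although their group's median depth was 4347 UMIs.

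**Figure D2:**
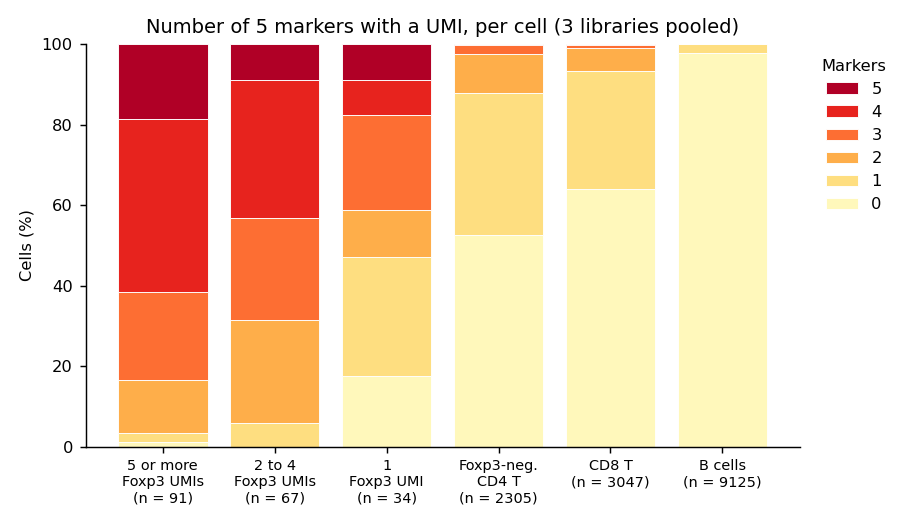
Stacked bars give the percentage of cells that carried 0 to 5 of the markers Il2ra, Ctla4, Izumo1r, Ikzf2 and Icos, pooled over 3 libraries, for Foxp3-positive cells with 5 or more, 2 to 4 or 1 Foxp3 UMIs and for Foxp3-negative CD4 T cells, CD8 T cells and B cells. Cells with 3 or more markers make up 83.5%, 68.7% and 41.2% of the Foxp3-positive bars and 2.43% of the Foxp3-negative CD4 bar.

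Over all genes, 917 of 8380 differed between Foxp3-positive and Foxp3-negative CD4 T cells at an adjusted p under 0.05, or 10.9%. Of these, 602 were higher (7.18%) and 315 lower (3.76%) in Foxp3-positive cells. The median log2 fold of all 8380 genes was −0.02. Without replicate 1, which held 119 of the 192 cells, 334 genes passed, and without replicate 2, which had the most erythroid transcripts, 671 passed. The counts below are over list members that passed the filter on low counts, in which high values in either group suffice, and they are read beside these percentages. The 14 gate genes were left out of the test.

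**Figure D3:**
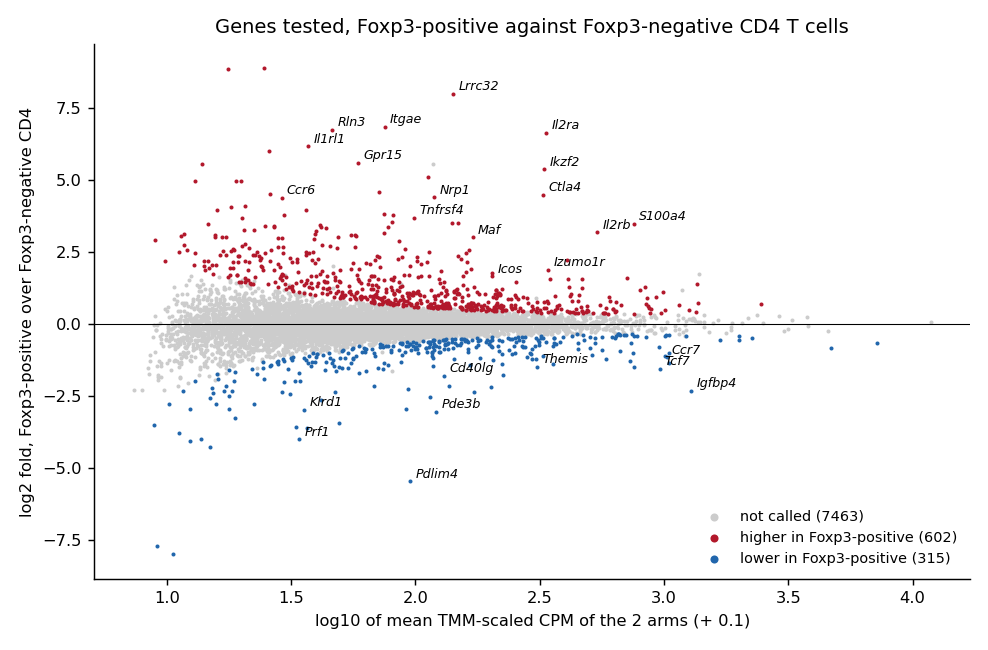
Each point is 1 of 8380 genes, placed by its mean level and by the log2 fold of Foxp3-positive over Foxp3-negative CD4 T cells, with 602 higher and 315 lower genes coloured. Il2ra, Ikzf2 and Lrrc32 lie near the top of the plot, and fitted folds of genes with 0 UMIs in 1 arm have no fixed size.

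Genes of suppressor function were higher in Foxp3-positive cells or did not pass the test. Of 20 on the list, 11 passed the filter, 8 were higher and 0 lower, with a median log2 fold of 2.13. Lrrc32 (GARP), which holds latent transforming growth factor beta on the cell surface, had 175, 216 and 458 CPM in Foxp3-positive cells, against 0.358, 1.60 and 1.91 CPM in Foxp3-negative CD4 T cells (log2 fold 7.98, SE 0.36, adjusted p = 8.94e-28). Nrp1, a semaphorin receptor, had 208, 273 and 196 CPM in Foxp3-positive cells, against 9.31, 10.4 and 13.4 CPM in Foxp3-negative CD4 T cells (log2 fold 4.38, adjusted p = 6.09e-23). The groups were far apart for both, with Lrrc32 highest in replicate 3. The ectoenzymes that turn extracellular ATP into adenosine were both higher: Entpd1 (CD39) averaged 54.5 ± 16.3 CPM in Foxp3-positive cells and 4.37 ± 1.00 CPM in Foxp3-negative CD4 T cells (SD, n = 3 each; log2 fold 3.77), and Nt5e (CD73) averaged 262 ± 56.1 CPM in Foxp3-positive cells and 60.3 ± 10.2 CPM in Foxp3-negative CD4 T cells (log2 fold 2.13). Fgl2, Ecm1 and Cd274 (PD-L1) had log2 folds of 2.50, 1.52 and 1.12. The suppressive cytokine gene Il10 had 0 UMIs in Foxp3-positive, Foxp3-negative and CD8 cells alike, so a difference was not detectable at this depth. Il12a, which encodes a chain of interleukin 35, and Penk had 0 UMIs in Foxp3-positive cells, against 7 and 4 in Foxp3-negative CD4 T cells, which with 192 cells against 2305 do not show a difference.

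Cytokine receptors and their signalling genes moved in both directions. Of 27 on the list, 25 passed the filter, 12 were higher and 2 lower, with a median log2 fold of 0.45. Il2rb, the interleukin 2 receptor beta chain, had 887, 814 and 1224 CPM in Foxp3-positive cells, against 116, 133 and 63.0 CPM in Foxp3-negative CD4 T cells (log2 fold 3.17, SE 0.39, adjusted p = 0.0340). The groups did not overlap, but the call was lost with DESeq2's size factors, at matched depth (up to 3 Foxp3-negative cells of nearest UMI total for each Foxp3-positive cell) and under a stricter gate with 0 B cell and 0 myeloid UMIs. Il1rl1 (ST2), the interleukin 33 receptor, had 99.9, 25.4 and 93.4 CPM in Foxp3-positive cells, against 1.61, 0.800 and 0 CPM in Foxp3-negative CD4 T cells (log2 fold 6.15), with the lowest Foxp3-positive level in replicate 2. Il7r, the interleukin 7 receptor on which naive and memory T cells depend, went the other way, with 481, 477 and 569.8 CPM in Foxp3-positive cells, against 1034, 1039 and 922 CPM in Foxp3-negative CD4 T cells (log2 fold −1.01, adjusted p = 2.16e-09). Tgfbr2, a receptor of transforming growth factor beta, was the other lower gene (log2 fold −0.90). Cish, a feedback inhibitor induced by interleukin 2, and Il12rb1 were higher by log2 folds of 3.08 and 3.03.

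Costimulatory receptors and tumour necrosis factor receptors were mostly higher: of 23, 21 passed the filter, 13 were higher and 1 lower, with a median log2 fold of 0.63. Tnfrsf4 (OX40), an activation-induced costimulatory receptor, had 167, 222 and 159 CPM in Foxp3-positive cells, against 12.5, 17.6 and 13.4 CPM in Foxp3-negative CD4 T cells (log2 fold 3.67, adjusted p = 1.14e-18). Its lowest Foxp3-positive library lay above every Foxp3-negative one. Tnfrsf9 (4-1BB) and Tnfrsf1b (TNFR2) were higher by log2 folds of 3.65 and 2.23. Tnfrsf18 (GITR), long used to mark regulatory T cells, averaged 312 ± 11.8 CPM in Foxp3-positive cells and 94.4 ± 11.8 CPM in Foxp3-negative CD4 T cells (SD, n = 3 each; log2 fold 1.76). The single lower gene was Cd28, the receptor whose ligands Ctla4 binds (log2 fold −0.63).

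Transcription factors divided: of 36, 33 passed the filter, 12 were higher and 6 lower, with a median log2 fold of 0.11. Ikzf4 (Eos), a partner of Foxp3 in gene repression, had 125, 165 and 112 CPM in Foxp3-positive cells, against 14.3, 12.8 and 17.8 CPM in Foxp3-negative CD4 T cells (log2 fold 3.15, adjusted p = 6.05e-14). Within the Ikaros family, Ikzf2, Ikzf4 and Ikzf3 (log2 fold 1.57) were higher, and Ikzf1 itself was lower (log2 fold −1.03). Maf, which directs cytokine genes in helper and regulatory cells, had 377, 375 and 140.1 CPM in Foxp3-positive cells, against 37.6, 32.8 and 56.0 CPM in Foxp3-negative CD4 T cells (log2 fold 3.00, SE 0.38, adjusted p = 0.00757), with the lowest Foxp3-positive level in replicate 3. That call was lost under the stricter gate. Irf4, Ahr, Rora and Prdm1 (Blimp-1), factors active in effector regulatory cells, were higher by log2 folds of 2.63, 2.53, 2.23 and 1.97.

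Genes of naive and quiescent T cells were lower in Foxp3-positive cells or did not pass the test. Of 17, 16 passed the filter, 0 were higher and 12 lower, with a median log2 fold of −1.06. Igfbp4, an insulin-like growth factor binding protein typical of naive T cells, had 389, 349.6 and 579 CPM in Foxp3-positive cells, against 2036, 2061 and 2294 CPM in Foxp3-negative CD4 T cells (log2 fold −2.32, SE 0.13, adjusted p = 7.49e-23). Tcf7 (TCF-1), which maintains naive and memory T cells, had 531, 477 and 429.7 CPM in Foxp3-positive cells, against 1442, 1431 and 1446 CPM in Foxp3-negative CD4 T cells (log2 fold −1.56, adjusted p = 4.30e-16). Satb1, a chromatin organiser, had 616, 547 and 775 CPM in Foxp3-positive cells, against 1417, 1330.1 and 1390.2 CPM in Foxp3-negative CD4 T cells (log2 fold −1.12). In all 3 genes every Foxp3-positive library lay below every Foxp3-negative one. Ccr7, the receptor for entry to lymph nodes, had 647, 451 and 822 CPM in Foxp3-positive cells, against 1411, 1362 and 1449 CPM in Foxp3-negative CD4 T cells (log2 fold −1.16), and Lef1, Dapl1 and Als2cl were lower by log2 folds of −1.35, −2.18 and −1.77.

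Effector and activation genes were mostly higher: of 26, 24 passed the filter, 17 were higher, 1 was lower and 6 did not pass the test, with a median log2 fold of 1.63. Itgae (CD103), the integrin chain that binds E-cadherin, had 202, 133 and 112 CPM in Foxp3-positive cells, against 2.15, 0.800 and 0 CPM in Foxp3-negative CD4 T cells (log2 fold 6.83, adjusted p = 3.71e-20). S100a4, a calcium-binding protein of antigen-experienced T cells, had 2078, 1639.8 and 448 CPM in Foxp3-positive cells, against 144, 126 and 101 CPM in Foxp3-negative CD4 T cells (log2 fold 3.46, SE 0.40, adjusted p = 0.0307), and this call was lost under the stricter gate and when 2 Foxp3 UMIs were required. S100a6 had 435, 311 and 56.0 CPM in Foxp3-positive cells, against 26.3, 39.2 and 17.8 CPM in Foxp3-negative CD4 T cells (log2 fold 3.50). Replicate 3 had the lowest Foxp3-positive level of all 3 genes, and the groups did not overlap. Itgb1 (integrin beta 1), the cytoskeletal genes Ahnak and Capg, and Glrx were higher by log2 folds of 1.54, 2.22, 2.54 and 2.46. The lower gene was Id2 (log2 fold −0.86). Klrg1, an inhibitory receptor of late effector cells, averaged 229.7 ± 165 CPM in Foxp3-positive cells and 5.62 ± 4.56 CPM in Foxp3-negative CD4 T cells (SD, n = 3 each) and did not pass (log2 fold 5.55, adjusted p = 0.0531).

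**Figure D4:**
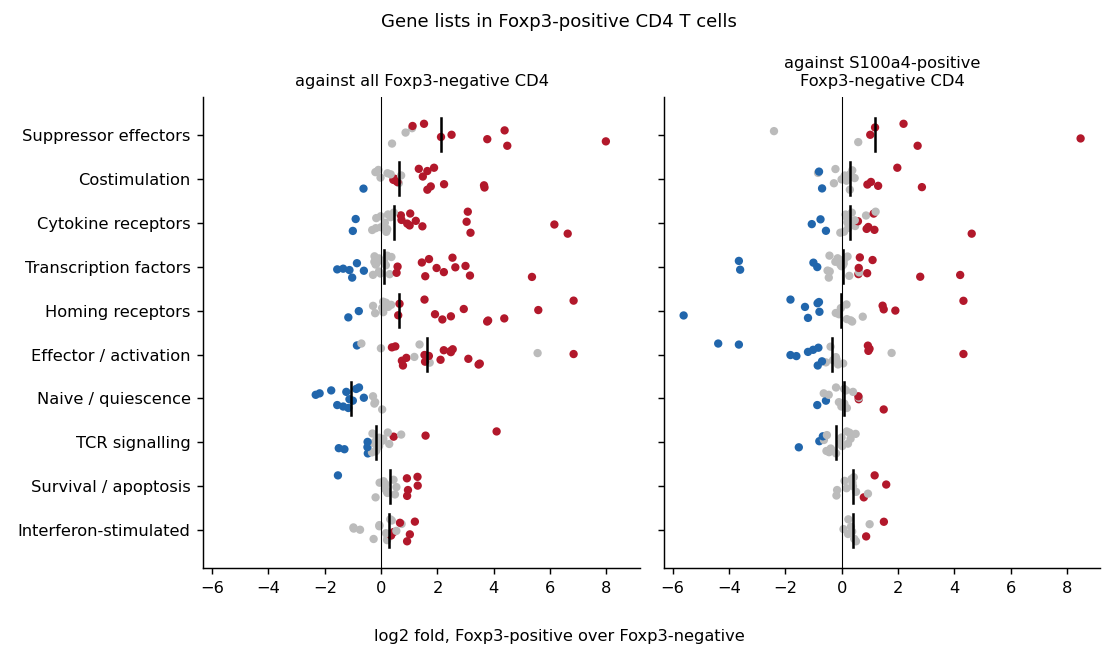
Each point is 1 list gene placed by its log2 fold in Foxp3-positive cells over all Foxp3-negative CD4 T cells (left) or over the S100a4-positive ones described below (right), with higher genes red, lower genes blue, genes not passing the test grey and list medians as black bars. The naive list has 12 lower and 0 higher genes in the left panel, and 3 higher and 2 lower in the right panel, where the fitted fold of Lrrc32 has no fixed size because the S100a4-positive cells held 0 UMIs.

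Of 26 homing receptors, 22 passed the filter, 12 were higher, 2 lower and 8 did not pass the test, with a median log2 fold of 0.63. Gpr15, a receptor for homing to the colon, had 85.3, 203 and 56.0 CPM in Foxp3-positive cells, against 1.97, 0 and 3.82 CPM in Foxp3-negative CD4 T cells (log2 fold 5.58). Ccr6, the receptor of Ccl20, had 62.5, 82.6 and 18.7 CPM in Foxp3-positive cells, against 1.97, 1.60 and 5.72 CPM in Foxp3-negative CD4 T cells (log2 fold 4.37). The groups did not overlap for either, and both were highest in replicate 2 and lowest in replicate 3 among Foxp3-positive libraries. Ccr4, a receptor for skin homing, averaged 141 ± 99.2 CPM in Foxp3-positive cells and 9.11 ± 3.89 CPM in Foxp3-negative CD4 T cells (log2 fold 3.80), and Ccr2 averaged 152 ± 107 CPM in Foxp3-positive cells and 9.85 ± 3.88 CPM in Foxp3-negative CD4 T cells (log2 fold 3.76; SD, n = 3 each). Cxcr3, the receptor of interferon-induced chemokines, averaged 189 ± 61.4 CPM in Foxp3-positive cells and 37.6 ± 9.40 CPM in Foxp3-negative CD4 T cells (log2 fold 2.48). Klf2 and S1pr1, which govern exit from lymph nodes into blood, did not pass the test, with log2 folds of −0.24 and −0.21.

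Most helper cytokine genes were too low in the CD4 arms to pass the filter. Of 17, 5 passed the filter, 0 were higher and 1 lower, with a median log2 fold of 0.15. The whole list summed to 1441, 1717 and 1665 CPM in Foxp3-positive cells, against 1623, 1592 and 1688 CPM in Foxp3-negative CD4 T cells. The lower gene was Cd40lg, the ligand by which helper T cells activate B cells, with 66.6, 44.5 and 56.0 CPM in Foxp3-positive cells, against 214, 188 and 216 CPM in Foxp3-negative CD4 T cells (log2 fold −1.80, SE 0.20, adjusted p = 2.19e-10). The groups did not overlap. Il5, Il17a, Il21 and Il22 had 0 UMIs in Foxp3-positive, Foxp3-negative and CD8 cells. Il2 had 0 UMIs in Foxp3-positive cells and 12 in Foxp3-negative CD4 T cells, and Il4 had 0 in Foxp3-positive cells and 4 in Foxp3-negative CD4 T cells. With 192 cells against 2305, these counts do not show a difference.

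Of 25 genes of T cell receptor signalling, 22 passed the filter, 3 were higher and 5 lower, with a median log2 fold of −0.17. Dusp4, a phosphatase that limits MAP kinase activity, had 35.4, 44.5 and 37.4 CPM in Foxp3-positive cells, against 2.33, 2.40 and 1.27 CPM in Foxp3-negative CD4 T cells (log2 fold 4.10). Themis, a thymocyte selection adaptor, had 167, 153 and 159 CPM in Foxp3-positive cells, against 463, 441 and 466 CPM in Foxp3-negative CD4 T cells (log2 fold −1.50). Both genes separated the groups, in opposite directions. The signalling genes Rasgrp1 and Cd247 were also lower, by log2 folds of −0.49 and −0.47. The call of Rasgrp1 was lost in the DESeq2 Wald test, without replicate 2, at matched depth and under the stricter gate. Nr4a1, induced by T cell receptor signals, had a log2 fold of 1.58, a call lost in the DESeq2 Wald test and without replicate 1 or replicate 2.

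Survival genes gave 5 higher and 1 lower of 16 that passed the filter, from a list of 17, with a median log2 fold of 0.33. The kinase Pim1 had 1039, 1246 and 1298 CPM in Foxp3-positive cells, against 471, 536 and 433 CPM in Foxp3-negative CD4 T cells (log2 fold 1.29, adjusted p = 1.67e-14), with no overlap. The related kinase Pim2 was lower (log2 fold −1.53), a call lost in the Wald test and without replicate 1. Interferon-stimulated genes gave 6 higher and 0 lower of 20 that passed, from 22, with a median of 0.28, led by Gbp2 (log2 fold 1.20). Among them, Isg15 overlapped between the groups (log2 fold 0.92) and lost its call in 7 alternatives. Proliferation genes gave 3 higher and 1 lower of 9 that passed, from 15, with a median of −0.34. The 3 genes called higher, which act in cell division and DNA synthesis, were highest in replicate 1. Mki67 had 112, 38.1 and 0 CPM in Foxp3-positive cells, against 14.3, 17.6 and 4.45 CPM in Foxp3-negative CD4 T cells (log2 fold 2.29). Rrm2 had 110.3, 19.1 and 0 CPM in Foxp3-positive cells, against 15.4, 19.2 and 6.36 CPM in Foxp3-negative CD4 T cells (log2 fold 1.98), and Top2a had 114, 0 and 0 CPM in Foxp3-positive cells, against 29.9, 7.20 and 11.4 CPM in Foxp3-negative CD4 T cells (log2 fold 1.46). The groups overlapped for all 3 genes, and each was at 0 in the Foxp3-positive cells of replicate 3. The whole list summed to 942, 439 and 322 CPM in Foxp3-positive cells, against 615, 676 and 553 CPM in Foxp3-negative CD4 T cells, so the Foxp3-positive cells were higher in replicate 1 and lower in replicates 2 and 3. Mcm3 was lower (log2 fold −1.18), a call lost in the Wald test and without replicate 2.

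Outside the lists, the genes with the largest called differences included genes of several kinds. Rln3, a relaxin family peptide, had 64.5, 108 and 103 CPM in Foxp3-positive cells, against 1.07, 0 and 0 CPM in Foxp3-negative CD4 T cells (log2 fold 6.72). Serpina3g, a serine protease inhibitor, had 223, 172 and 262 CPM in Foxp3-positive cells, against 6.09, 5.60 and 8.27 CPM in Foxp3-negative CD4 T cells (log2 fold 5.07). Both were low in all Foxp3-negative libraries, and the structural genes Lamc1 and Map6 had log2 folds of 5.99 and 5.53. The chemokine receptor Ccr3 and the guanylate-binding protein Gbp2b had 0 UMIs in Foxp3-negative CD4 T cells and were each at least 109-fold higher in Foxp3-positive cells, against a floor of 3 UMIs over that group. On the other side, Pde3b, a phosphodiesterase, had 27.1, 6.36 and 46.7 CPM in Foxp3-positive cells, against 205, 239 and 200.3 CPM in Foxp3-negative CD4 T cells (log2 fold −3.05). Pdlim4 had 3 UMIs in Foxp3-positive cells, and its pooled level in Foxp3-negative cells was higher by a ratio of 46.1 (15.7 to 224). Nme4 had 0 UMIs in Foxp3-positive cells and was at least 5.29-fold lower against the same kind of floor, a call lost without replicate 1.

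Markers of other cell types were read beside these results. Their part in the results was not tested. The B cell list summed to 1564, 2407 and 2109.9 CPM in Foxp3-positive cells, against 1067, 1413 and 1898 CPM in Foxp3-negative CD4 T cells. Of 10 B cell genes that passed the filter, 1 was higher, the immunoglobulin chain Ighm, which averaged 1701 ± 327 CPM in Foxp3-positive cells and 1040.3 ± 118 CPM in Foxp3-negative CD4 T cells (SD, n = 3 each; log2 fold 0.71), and 0 lower. The gate allowed up to 2 B cell UMIs, and 46 of 192 Foxp3-positive cells (24.0%) had 1 or 2, against 318 of 2305 Foxp3-negative cells (13.8%). In replicates 1, 2 and 3, the shares in Foxp3-positive cells were 20.2%, 26.8% and 34.4%. Those in Foxp3-negative cells were 7.09%, 21.6% and 28.5%, so the gap was widest in replicate 1. The natural killer list summed to 139, 100.3 and 104 CPM in Foxp3-positive cells, against 467, 436 and 167 CPM in Foxp3-negative CD4 T cells, and 4 of 6 of its genes were lower (Prf1, Gzma, Klrd1 and Tyrobp) and 0 higher. Myeloid, gamma-delta, platelet and erythroid lists had 4, 1, 4 and 4 genes past the filter, of which 0 passed the test. Platelet sums were 8.19, 169 and 643 CPM in Foxp3-positive cells, against 9.11, 213 and 79.9 CPM in Foxp3-negative CD4 T cells. Myeloid sums were 219, 508 and 435 CPM in Foxp3-positive cells, against 234, 401 and 316 CPM in Foxp3-negative ones, and gamma-delta sums were 18.4, 0 and 66.2 CPM in Foxp3-positive cells, against 34.5, 49.0 and 29.6 CPM in Foxp3-negative ones. Blk, Klrb1c, Flt3, Siglech, Tcrg-C1, Sox13, Zbtb16, Cd163l1 and Gp1bb were at 0 UMIs in Foxp3-positive cells.

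Because effector genes separated the CD4 arms, Foxp3-positive cells were also set against the 106 Foxp3-negative CD4 T cells that carried S100a4 (70, 17 and 19 cells, median 4023, 3791 and 3147 UMIs). This comparison was chosen after seeing the data, it shares the Foxp3-positive cells with the first, and S100a4 selected 1 arm only. Of 3942 genes, 257 passed (6.52%), 147 higher (3.73%) and 110 lower (2.79%). Il2ra had 561, 627 and 793 CPM in Foxp3-positive cells, against 35.0, 0 and 0 CPM in S100a4-positive cells (log2 fold 4.62, adjusted p = 3.06e-28). Ctla4 had 592, 583 and 670.5 CPM in Foxp3-positive cells, against 75.7, 28.1 and 232 CPM in S100a4-positive cells (log2 fold 2.70). Neither overlapped between the groups, and Ikzf2, at 672, 740.0 and 491 CPM in Foxp3-positive cells, against 84.5, 14.0 and 217 CPM in S100a4-positive cells, did not either (log2 fold 2.79). Lrrc32 had 167 UMIs in Foxp3-positive cells and 0 in S100a4-positive cells, at least 35.3-fold higher against a floor of 3 UMIs over the group. Icos did not pass the test (log2 fold 0.29, adjusted p = 0.581), nor did Maf (−0.05), Il2rb (−0.05), S100a6 (−0.13), Ccr7 (0.18), Lef1 (−0.01), Igfbp4 (−0.46) or Ccr4 (0.32). The suppressor list gave 5 higher and 0 lower of 7 genes.

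Against these S100a4-positive cells, several effector genes were lower in Foxp3-positive cells. S100a4 is itself on the effector list and chose only the S100a4-positive arm. The effector, homing and naive differences below are therefore a description, and how far they follow from that choice was not tested. The effector list gave 4 higher and 9 lower of 22, and the homing list 4 higher and 7 lower of 19. Id2, a factor of effector T cells, had 133, 125 and 56.7 CPM in Foxp3-positive cells, against 1360.4, 1586 and 1516 CPM in S100a4-positive cells (log2 fold −3.65, adjusted p = 4.23e-44). The chemokine Ccl5 had 105, 269.7 and 113 CPM in Foxp3-positive cells, against 2881, 2231 and 5554 CPM in S100a4-positive cells (log2 fold −4.38, adjusted p = 0.0427). Neither overlapped, and Itgb1, at 574, 621 and 331 CPM in Foxp3-positive cells, against 1757, 1572 and 2259 CPM in S100a4-positive cells, was lower too (log2 fold −1.82). Tbx21 (T-bet), Cxcr3 and Cd44 were lower by log2 folds of −3.60, −1.20 and −0.85. Itgae and Gpr15 were higher, by log2 folds of 4.32 and 1.91. The naive list gave 3 higher and 2 lower of 16, with Satb1 higher (log2 fold 0.61) and Tcf7 lower (log2 fold −0.87). Cd40lg and Themis were lower here as well, by log2 folds of −2.10 and −1.52.

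Foxp3-positive cells were next set against CD8 T cells, a comparison that shares the Foxp3-positive cells with those above. Of 8894 genes, 1481 passed (16.7%), 836 higher (9.4%) and 645 lower (7.25%), and the count was 616 without replicate 1 and 977 without replicate 2. All 5 markers were higher, with log2 folds of 8.59 for Il2ra, 5.63 for Ctla4, 4.16 for Izumo1r, 4.22 for Ikzf2 and 2.17 for Icos. Maf had 374, 375 and 141 CPM in Foxp3-positive cells, against 2.43, 1.75 and 3.47 CPM in CD8 T cells (log2 fold 6.98, adjusted p = 1.75e-44). Zbtb7b (ThPOK), the factor of CD4 lineage choice, and Cd40lg were higher by log2 folds of 4.60 and 4.26. The groups were far apart for Maf, and Lrrc32 had 3 UMIs in CD8 T cells, a pooled ratio of 985 (331 to 4824). Ccr4, Ccr6 and Il1rl1 were higher by log2 folds of 7.28, 5.57 and 7.21.

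Several cytotoxic genes were lower or at 0 in Foxp3-positive cells. Ccl5 had 108, 274 and 113 CPM in Foxp3-positive cells, against 2771, 3367 and 2087 CPM in CD8 T cells (log2 fold −4.22). Eomes, a factor of cytotoxic T cells, the adhesion receptor Adgrg5 and the chemokine Xcl1 had 0 UMIs in Foxp3-positive cells and were at least 23.3-fold, 55.1-fold and 8.44-fold lower against a floor of 3 UMIs over the group. Of natural killer genes, 0 were higher and 6 lower of 7 that passed the filter. Naive genes gave 0 higher and 11 lower of 16, with log2 folds of −1.12 for Tcf7, −0.71 for Ccr7 and −0.94 for Il7r. The suppressor list gave 10 higher and 0 lower of 12, the costimulation list 16 higher and 1 lower of 22, the effector list 15 higher and 3 lower of 25, and the transcription factor list 17 higher and 9 lower of 34. Il2rb, Itgae and Cxcr3, higher than in Foxp3-negative CD4 T cells, did not pass against CD8 T cells, with log2 folds of 0.47, 0.29 and 0.15.

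The Foxp3-positive cells differed among themselves. Ikzf2 was seen in 131 of the 192 (84, 26 and 21 in replicates 1, 2 and 3) and not in 61 (35, 15 and 11), with median depths of 3887, 3590.5 and 2891 UMIs in Ikzf2-positive cells, against 3227, 3184 and 3694 UMIs in Ikzf2-negative cells. A cell without an Ikzf2 UMI may still express it at this depth. Of 2541 genes, 50 differed (1.97%), 33 higher (1.3%) and 17 lower (0.669%) in Ikzf2-positive cells. The count was 12 without replicate 1, 24 without replicate 2, 93 without replicate 3 and 11 with DESeq2's Wald test. Ikzf2 was seen more often in cells with more Foxp3 UMIs: in 10 of 34 cells with 1 (29.4%), 48 of 67 with 2 to 4 (71.6%) and 73 of 91 with 5 or more (80.2%). With 2 or more Foxp3 UMIs required, 29 genes passed, 24 higher and 5 lower. S100a4 had 2607, 2212 and 642 CPM in Ikzf2-positive cells, against 326, 214 and 126 CPM in Ikzf2-negative cells (log2 fold 3.01, SE 0.24, adjusted p = 1.18e-08). Itgb1 had 722, 829 and 463 CPM in Ikzf2-positive cells, against 155, 129 and 101 CPM in Ikzf2-negative cells (log2 fold 2.34, SE 0.27, adjusted p = 4.46e-06). Both were higher in every Ikzf2-positive library. The effector list gave 12 higher and 0 lower of 19 genes, among them Cxcr3, Itgae, S100a6 and Ccl5, with log2 folds of 2.18, 2.60, 2.47 and 2.67. Wald tests called none of these 4, Cxcr3 was lost without replicate 1 and Ccl5 without replicate 2, and S100a4 was lost without the library block.

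In the same split the naive list gave 0 higher and 7 lower of 15 genes. Igfbp4 had 111, 196 and 134 CPM in Ikzf2-positive cells, against 1254, 707 and 1333 CPM in Ikzf2-negative cells (log2 fold −2.99, SE 0.26, adjusted p = 6.19e-08). Tcf7 had 413, 241 and 164 CPM in Ikzf2-positive cells, against 885, 1028 and 880.0 CPM in Ikzf2-negative cells (log2 fold −1.62). Ikzf2-positive cells lay below Ikzf2-negative cells in every library for both genes. Ccr7 had 464, 268 and 507 CPM in Ikzf2-positive cells, against 1203, 878 and 1358 CPM in Ikzf2-negative cells (log2 fold −1.47), and Satb1 had 469.8, 366 and 492 CPM in Ikzf2-positive cells, against 1057, 964 and 1257 CPM in Ikzf2-negative cells (log2 fold −1.28). Igfbp4, Tcf7, Satb1, Ccr7 and Itgb1 passed under every alternative that tested them, 5 of the 23 genes named for this split. Of the markers, Icos was higher (424, 535 and 179 CPM in Ikzf2-positive cells, against 94.5, 236 and 25.1 CPM in Ikzf2-negative cells, log2 fold 1.80), with overlapping groups and a call lost in the Wald test, without replicate 1, at matched depth and under the stricter gate. Ctla4 did not pass (log2 fold 0.60, adjusted p = 0.298). Il2ra had 592, 579.8 and 761 CPM in Ikzf2-positive cells, against 515, 749.7 and 829.7 CPM in Ikzf2-negative cells and Izumo1r a log2 fold of 0.01, and neither passed.

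**Figure D5:**
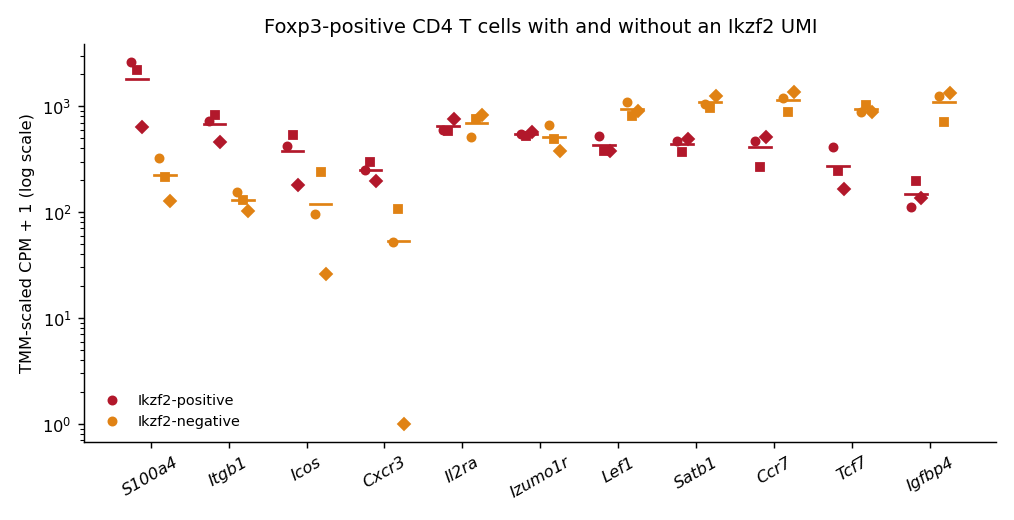
Levels in Ikzf2-positive and Ikzf2-negative Foxp3-positive cells, in TMM-scaled CPM + 1 on a log axis, with circles, squares and diamonds for replicates 1, 2 and 3 and bars for means. S100a4 and Itgb1 are higher, Igfbp4, Tcf7, Ccr7 and Satb1 lower in Ikzf2-positive cells, while Il2ra overlaps, at 579.8 to 761 CPM in Ikzf2-positive and 515 to 829.7 CPM in Ikzf2-negative cells.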

How the data were processed

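Blood leukocytes of 3 samples from untreated male mice were fixed and probed with a multiplexed fixed-RNA probe kit, per the labels' protocols. The deposited matrices hold raw UMI counts for 19059 genes, which Cell Ranger 7.1.0 wrote, per the file headers. Neither probe set nor genome build is given there or in the labels. Probes read a fixed set of targets, so levels are not compared between genes.

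Cells were gated on raw UMIs as stated in the results, and counts were summed per library and arm. edgeR 4.0.16 (R 4.3.3, limma 3.58.1) fitted each comparison by robust quasi-likelihood with filterByExpr, TMM scaling and the library as a block, leaving out the 14 gate genes. The block comes from the design, since each library supplies both arms. Changes passed at a Benjamini-Hochberg adjusted p under 0.05. SDs are over libraries. Folds against 0 UMIs use a floor of 3 counts over the group, and those on 1 to 3 UMIs are pooled ratios with exact 95% intervals. Scrublet (scanpy 1.11.5) marked doublets, which were kept. The fits were tested on simulated data. Alternatives were DESeq2 1.42.0, other scaling, filters, depth matching (up to 3 cells of the other arm per cell), other gates, no block, and each replicate left out.

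The cells and 19 gene lists, 311 of whose 315 entries are in the matrices, were chosen with earlier results of these data known. Ly6c1, Trgc1, Trgc2 and Trdv4 were not analysed here. The genes named were the markers, up to 3 genes per list and direction, and the 12, 8 or 5 highest and lowest over all genes in the CD4, CD8 and Ikzf2 comparisons, among called genes that moved the same way in all 3 libraries at 20 CPM or more. Further genes in the text fall outside this rule and were picked once their values were known. Some genes and results that were computed are not reported here.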

Additional observations from a re-analysis of the deposited data

How the results depend on the processing

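Against Foxp3-negative CD4 T cells, 917 genes passed. DESeq2's Wald test gave 393 (298 higher and 95 lower, 75.8% higher against 65.6%), matched depth 595, the stricter gate 510 and the S100a4-positive arm, chosen after seeing the data, 257. Leaving out 1 replicate gave 334 to 921. Against CD8 T cells, 1481 passed: the Wald test gave 698, the stricter gate 964 and leaving out 1 replicate 616 to 1567. In the Ikzf2 split, 50 passed: Wald 11, no filter 95, matched depth 27, stricter gate 17, 2 or more Foxp3 UMIs 29 (24 higher and 5 lower), and 12 to 93 with 1 replicate left out. Without the replicate block the counts were 962, 1576 and 71. The cause of these shifts was not tested.

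In the CD4, CD8 and Ikzf2 comparisons, the naming rule picked 64, 64 and 23 genes. Of these, 38, 55 and 5 passed under every alternative that tested them. Genes absent from an alternative's test were not counted as lost there. Against the S100a4-positive arm, log2 folds reversed for Il2rb (−0.048), Maf (−0.050), Satb1 (0.61), Als2cl (0.15), S100a6 (−0.13), Ccr7 (0.18) and Rasgrp1 (0.018). In the Ikzf2 split, Il2ra reversed with no filter (0.0067), at matched depth (0.21) and under the stricter gate (0.080), and ranged over −0.21 to 0.075 with 1 replicate left out. Izumo1r reversed with plain totals (−0.0030) and with 2 or more Foxp3 UMIs (−0.36), and ranged over −0.15 to 0.34. The mean share of Foxp3-positive cells over libraries stayed between 6.63% and 8.85% under its alternatives. The 192 cells and 3 libraries limit what low genes can show, and an absent UMI does not show absent expression.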
